A study of Homo sapiens with 2 samples.

Results

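The genes described here are the sorting nexins, the retromer and WASH subunits, the vacuolar protein sorting (VPS) genes, the ESCRT subunits, the EHD ATPases and the syntaxins of PC3 prostate cancer cells. They were chosen by gene symbol, from the platform's annotation of the probe sets, by a rule that uses no measured value, although the group was proposed with earlier results of these data known. The symbols picked 104 probe sets for 104 genes, out of 14088 probe sets with a gene name and 13864 genes. PC3 is a human prostate cancer cell line derived from a bone metastasis. PC3 cells stably overexpressing miR-95 were compared with PC3 cells stably overexpressing a control miR, 1 array for each, both grown in DMEM with serum. The sources used here do not give the vector, the number of clones behind each line or the level of miR-95, and 0 probe sets were named for MIR95, so its overexpression was not checked. SNX1 is a reported target of miR-95, and the comparison asks how it stood among its paralogs and partners when miR-95 was raised.

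Sorting nexins bind phosphoinositides of the endosome through a PX domain, and those with a BAR domain also bend the membrane into tubules. SNX1 or SNX2 pairs with SNX5 or SNX6 in a coat called ESCPE-1, which carries receptors from endosomes back to the trans-Golgi network, while the retromer trimer of VPS26, VPS29 and VPS35 selects cargo and recruits the WASH complex, which builds actin patches. The ESCRT complexes act on the opposite branch: they gather ubiquitinated receptors and bud them into the endosome for breakdown in lysosomes. Tethering complexes (HOPS, CORVET, GARP, EARP) and SNARE proteins such as the syntaxins then dock and fuse the carriers.

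The mature strands of miR-95 are shown because pairing of the seed, bases 2 to 8 from the 5′ end and in capitals here, selects the transcripts a microRNA represses. Both come from RefSeq on build GRCh38.p14, on the minus strand of chromosome 4, miR-95-3p at chr4:8005312-8005333 and miR-95-5p at chr4:8005347-8005367.
hsa-miR-95-3p: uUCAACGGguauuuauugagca
hsa-miR-95-5p: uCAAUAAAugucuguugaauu
Each seed was held by 1 of the 2370 human mature microRNA names in the table, so neither strand shares its seed with another family there. Target sites in the transcripts of these genes were not analysed here.

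Values are log2 expression values as deposited. A difference is the miR-95 value minus the control value, in log2, after each array was centred on its median over genes. These medians were 7.495 in miR-95 cells and 7.46 in control cells, so centring added -0.035 to each difference. A gene was called detected when its value reached that median on either array. With 1 array a group there is no replicate error and no test, so folds and differences describe this pair of arrays, and the number of arrays limits the precision. In RNA from a whole culture, fewer cells of a type and less RNA per cell cannot be told apart. As a guide to measurement disagreement, probe sets of the same gene spread by 0.126 on the log2 scale over 68 detected genes with several probe sets. This value is scaled like a standard deviation of 1 probe set, and a gap between 2 probe sets spreads wider. None of the 104 genes had more than 1 probe set. The epithelial markers KRT8, KRT18 and EPCAM were detected. Of 3 measured mesenchymal and fibroblast markers, VIM was detected, whereas LUM (6.04 on the miR-95 array, against 7.33 on the control array) and DCN (2.76 on the miR-95 array, against 2.90 on the control array) were not. CD14 of leukocytes, VWF of endothelium and the prostate luminal genes KLK3 and KLK2 were below the detection limit on both arrays.

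SNX1 had a lower value in miR-95 cells than in control cells and was among the lowest of the sorting nexins, but it did not stand far from them. Of the 104 genes, 87 were detected (83.7%, against 51.1% of all genes), 86 of them at or above the median on both arrays. None of the 87 was 1.5-fold lower and none 1.5-fold higher, where 0.861% and 0.395% of all 7081 detected genes were. At the lower limit of 1.2-fold, 6 of 87 were lower and 4 higher, or 6.90% and 4.60%. Of all detected genes 8.45% were lower and 5.48% higher at that limit, so these shares lay near the background. With the values not centred, 2 members were lower and 4 higher at 1.2-fold, where 6.07% of all detected genes were lower and 7.09% higher. The direction of the small differences was less even: 61 of 87 were negative (70.1%), where 59.4% of all detected genes were. With the values not centred, the shares were 62.1% and 48.0%. The median difference was -0.085, against -0.035 over all detected genes.

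**Figure D1:**
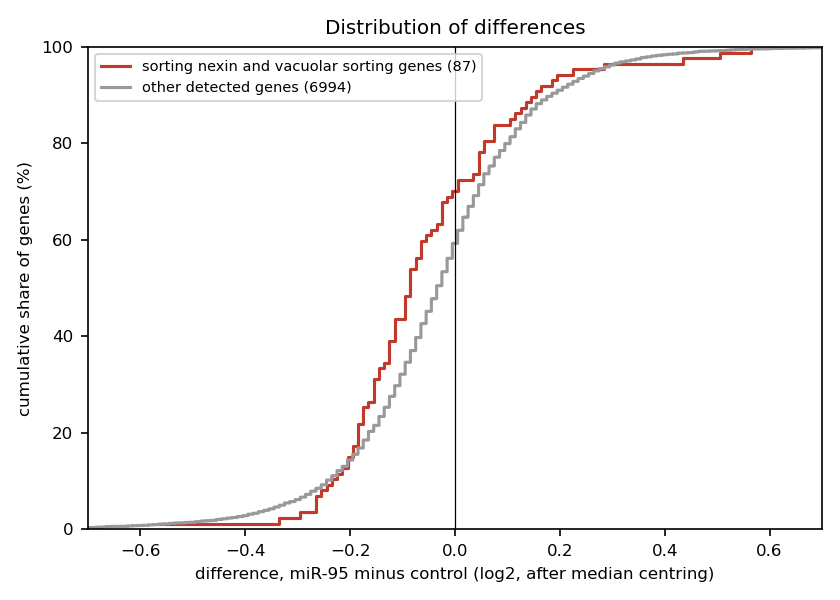
Cumulative share of genes (vertical axis, %) by difference, miR-95 minus control, in log2 after median centring (horizontal axis), for the 87 detected sorting nexin and vacuolar sorting genes and the 6994 other detected genes. The curve of the sorting genes lies left of the other through the middle of the range, and crosses 0 at 70.1%, against 59.3% for the other genes.

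Genomic span moved with these differences, and its part in the result was not tested beyond the adjustment for span in the closing section. The detected members had a median genomic span of 43.0 kb in RefSeq (assembly GRCh38.p14), against 29.4 kb over all detected genes. Differences declined with span in both sets (Spearman's rho = -0.27 across the 87 members and -0.24 across the 7081 genes, a description over genes measured on the same pair of arrays). Detected genes were divided into 3 equal classes of span. In the longest class, 28 of 34 members were negative, where 69.9% of all genes were. In the shortest class it was 12 of 23 members, where 46.0% were. Differences hardly followed brightness (rho = -0.02 across the members and -0.05 across all detected genes, again a description). The count of negative members was 33 of 42 in the brightest of 3 equal classes and 8 of 17 in the dimmest, where 63.2% and 54.7% of all genes were negative.

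Among the nexins of the ESCPE-1 coat, the 4 detected members had negative differences of small size, except that SNX2 turned to 0.01 after quantile normalization. SNX1 read 9.72 on the miR-95 array, against 9.91 on the control array, a difference of -0.225 and a fold of 1.17 lower. Its closest paralog SNX2, with which it is interchangeable in the coat, read 10.78 on the miR-95 array, against 10.79 on the control array (-0.045). The gap between the paralogs was 0.18 on the log2 scale. The 0.126 spread is that of 1 probe set, and a gap between 2 probe sets spreads wider. Whether 0.18 exceeds measurement disagreement is therefore uncertain. Of their partners, SNX6 read 11.28 on the miR-95 array, against 11.43 on the control array (-0.185), and SNX5 read 10.29 on the miR-95 array, against 10.32 on the control array (-0.065). SNX1 and SNX6 were the lower gene of each interchangeable pair. The gap between SNX5 and SNX6, 0.12, lay within the 0.126 spread, so the order in both pairs is uncertain. SNX32, a relative of SNX5 and SNX6, was below the detection limit at 5.62 on the miR-95 array, against 5.25 on the control array.

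SNX1 ranked 3rd from the lowest of 19 detected sorting nexins, 10th of the 87 detected members, and 784th of the 7081 detected genes. As many as 12.1% of all detected genes had a difference as low or lower. The genes on either side of it among the sorting nexins were SNX11 at -0.235 and SNX4 at -0.215, both closer to it than the spread between probe sets.

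Sorting nexins with a BAR domain outside that coat also lay on the lower side, 5 of 6 detected members with a median of -0.15. SNX4, which returns the transferrin receptor to the cell surface, read 9.44 on the miR-95 array, against 9.62 on the control array. SNX7, which can pair with SNX4, read 10.15 on the miR-95 array, against 10.31 on the control array (-0.195). SNX8 of endosome-to-Golgi transport was at -0.175, SNX30, a relative of SNX7, at -0.125, and SNX9, which acts with dynamin in endocytosis, at -0.115. The member on the higher side was SNX33, a relative of SNX9, at 8.18 on the miR-95 array, against 7.98 on the control array (0.165). SNX18, also of the SNX9 group, was not detected (0.055). Taking the BAR nexins as a whole, 9 of 10 detected members were negative with a median of -0.15, and 0 reached 1.2-fold in either direction. Of all detected genes 59.4% were negative, with a median of -0.035, and 8.45% were lower and 5.48% higher at 1.2-fold. The BAR nexins had a median genomic span of 71.3 kb, against 29.4 kb over all detected genes. In the longest class of span 69.9% of all genes were negative, with a median of -0.075. The part of span in the differences of the BAR nexins was not tested.

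The sorting nexins without a BAR domain were more mixed, with 6 negative and 3 positive of 9 detected (median -0.085). SNX16, an endosomal nexin of receptor trafficking, was the only sorting nexin to reach 1.2-fold, at 8.69 on the miR-95 array, against 8.92 on the control array (-0.265, just past the limit of 0.263). SNX11 read 9.91 on the miR-95 array, against 10.11 on the control array. SNX12 was at -0.165 and its paralog SNX3, which brings retromer to membranes for Wntless recycling, at -0.085. SNX27, the PDZ-domain nexin that returns receptors to the plasma membrane with retromer, was at -0.095, and SNX17, which does so with retriever, at 0.045. SNX13 lay at -0.025, and SNX21 and SNX29 both at 0.075. The 5 others of this class, SNX19, SNX20, SNX22, SNX24 and SNX31, were below the detection limit, with differences from -0.035 to 0.125.

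**Figure D2:**
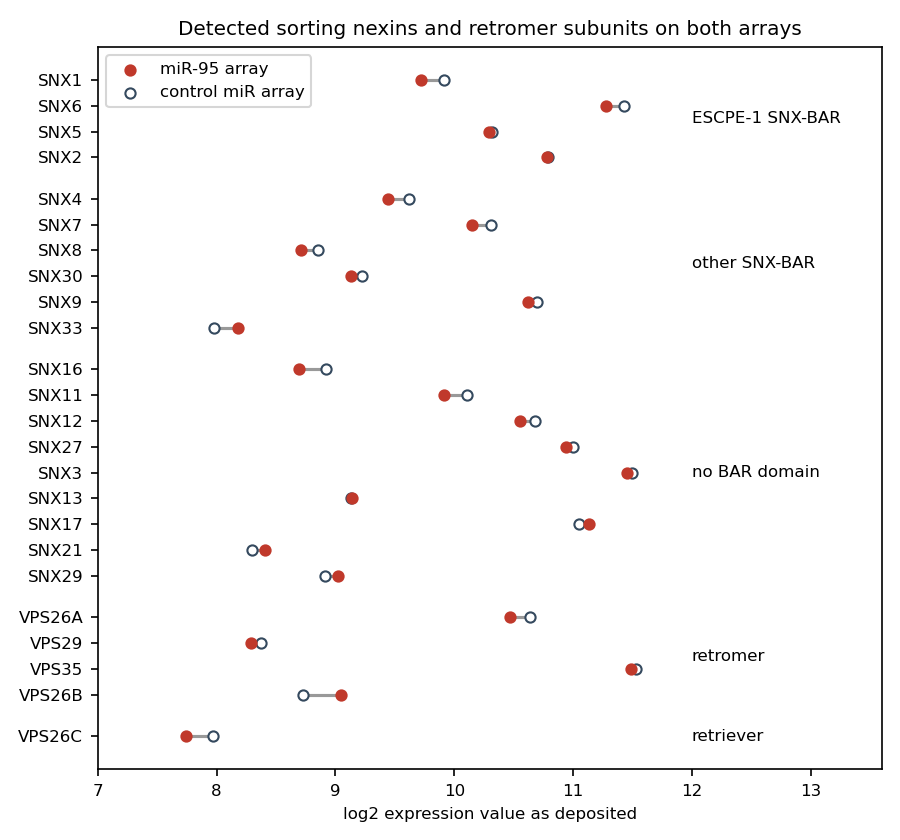
Log2 expression value as deposited (horizontal axis) of each detected sorting nexin, retromer subunit and VPS26C on the miR-95 array (filled red) and the control array (open), grouped by class. The 2 points of a gene lie close together throughout, and the levels of different genes are not comparable because each probe set has its own response. SNX1, SNX6, SNX4, SNX16 and VPS26A lie to the left on the miR-95 array, and VPS26B to the right.

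In the retromer trimer, the paralogs that can fill the VPS26 position differed in direction. VPS26A read 10.47 on the miR-95 array, against 10.64 on the control array (-0.205), whereas VPS26B read 9.05 on the miR-95 array, against 8.73 on the control array (0.285, 1.22-fold higher). The gap between them was 0.49 on the log2 scale, where probe sets of a single gene spread by 0.126, a measure for 1 probe set rather than a gap. VPS35, the scaffold of the trimer, read 11.49 on the miR-95 array, against 11.53 on the control array (-0.075), and VPS29 read 8.29 on the miR-95 array, against 8.37 on the control array (-0.115). The difference of SNX1 was lower than that of every retromer subunit, although only by 0.02 for VPS26A. VPS26C, which replaces VPS26 in the retriever complex, read 7.74 on the miR-95 array, against 7.97 on the control array (-0.265), and VPS35L of the same complex was below the limit (-0.025).

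The WASH complex was split evenly. WASHC4 (10.45 on the miR-95 array, against 10.59 on the control array, -0.175) and WASHC5 (-0.055) lay on the lower side. WASHC3 (0.125) and WASHC1, the actin-nucleating subunit (0.105), lay on the higher side. WASHC1 has near-identical copies in the genome, and 4 named copies gave differences from -0.095 for WASH3P to 0.255 for WASH5P, so its value is uncertain.

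Among the tethers, the subunits that distinguish GARP from EARP went in opposite directions. VPS54, found in GARP, which receives endosomal carriers at the trans-Golgi network, read 8.77 on the miR-95 array, against 8.23 on the control array (0.505, 1.42-fold higher). VPS50, which takes its place in EARP on recycling endosomes, read 8.81 on the miR-95 array, against 9.04 on the control array (-0.265). The 3 subunits that both complexes share lay close together on the lower side, VPS51 at -0.155, VPS53 at -0.145 and VPS52 at -0.115.

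Of the 7 subunits listed with CORVET and HOPS, 4 were negative and 3 positive (median -0.085). VPS33B, an SM protein that works with VIPAS39 rather than in HOPS itself, read 8.67 on the miR-95 array, against 8.20 on the control array (0.435, 1.35-fold higher). Its paralog VPS33A, the SM protein of HOPS and CORVET, read 9.28 on the miR-95 array, against 9.37 on the control array (-0.125), a gap of 0.56 between the paralogs. VIPAS39, the partner of VPS33B, was at 0.155. Of the subunits specific to HOPS, VPS41 was at -0.185 and VPS39 at 0.145, and of the core, VPS11 was at 0.185 and VPS18 at -0.085. VPS8, specific to CORVET, was at -0.155.

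Of 22 detected members of the ESCRT pathway, 0 were lower and 1 higher at 1.2-fold (4.55% higher, where 5.48% of all detected genes were). The 1 was the largest higher difference of all 87 detected members. VPS25, of ESCRT-II, which links the cargo-binding complexes to the filament, read 11.59 on the miR-95 array, against 10.99 on the control array (0.565, 1.48-fold higher). VPS36 of the same complex read 8.14 on the miR-95 array, against 8.23 on the control array (-0.125), so the measured subunits of ESCRT-II differed in direction. With the values not centred, VPS25 differed by 0.6 and passed 1.5-fold.

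The subunits of ESCRT-III polymerise into the filament that cuts the membrane neck. Of its 10 detected members 9 were negative, with a median of -0.15 and a narrow range from -0.185 to 0.035. Of all detected genes 59.4% were negative, with a median of -0.035. With the values not centred, the median of ESCRT-III was -0.115, against 0.0 over all detected genes, of which 48.0% were negative. The negative sign of CHMP7 rested on the centring, with 8.89 on the miR-95 array, against 8.88 on the control array. CHMP4B, the main building block of the filament, read 12.04 on the miR-95 array, against 12.19 on the control array, and CHMP2B read 10.89 on the miR-95 array, against 11.04 on the control array, each -0.185. CHMP1B was at -0.175, CHMP1A and CHMP4A each at -0.155, CHMP6 at -0.145, CHMP4C at -0.095, CHMP5 at -0.085 and CHMP7 at -0.025. The exception was CHMP2A, which recruits the disassembly ATPase, at 12.42 on the miR-95 array, against 12.35 on the control array (0.035). The ATPases that take the filament apart were on the same side, VPS4A at -0.195 and VPS4B at -0.115. None of these genes reached 1.2-fold, where 8.45% of all detected genes were lower and 5.48% higher at that limit. The median genomic span of the ESCRT-III genes was 15.1 kb, shorter than the 29.4 kb of all detected genes, and what part span had in their differences was not tested.

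The earlier ESCRT complexes lay nearer to 0. In ESCRT-0, which captures ubiquitinated cargo, STAM was at -0.125, HGS at -0.065 and STAM2 at 0.055. In ESCRT-I, the central subunit TSG101 read 10.92 on the miR-95 array, against 10.91 on the control array (-0.025). Its partners VPS28 and VPS37C were both at 0.005, and VPS37D was at 0.115. VPS37A, at 7.41 on the miR-95 array, against 7.63 on the control array (-0.255), lay below the median in miR-95 cells and passed the detection limit in control cells alone.

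**Figure D3:**
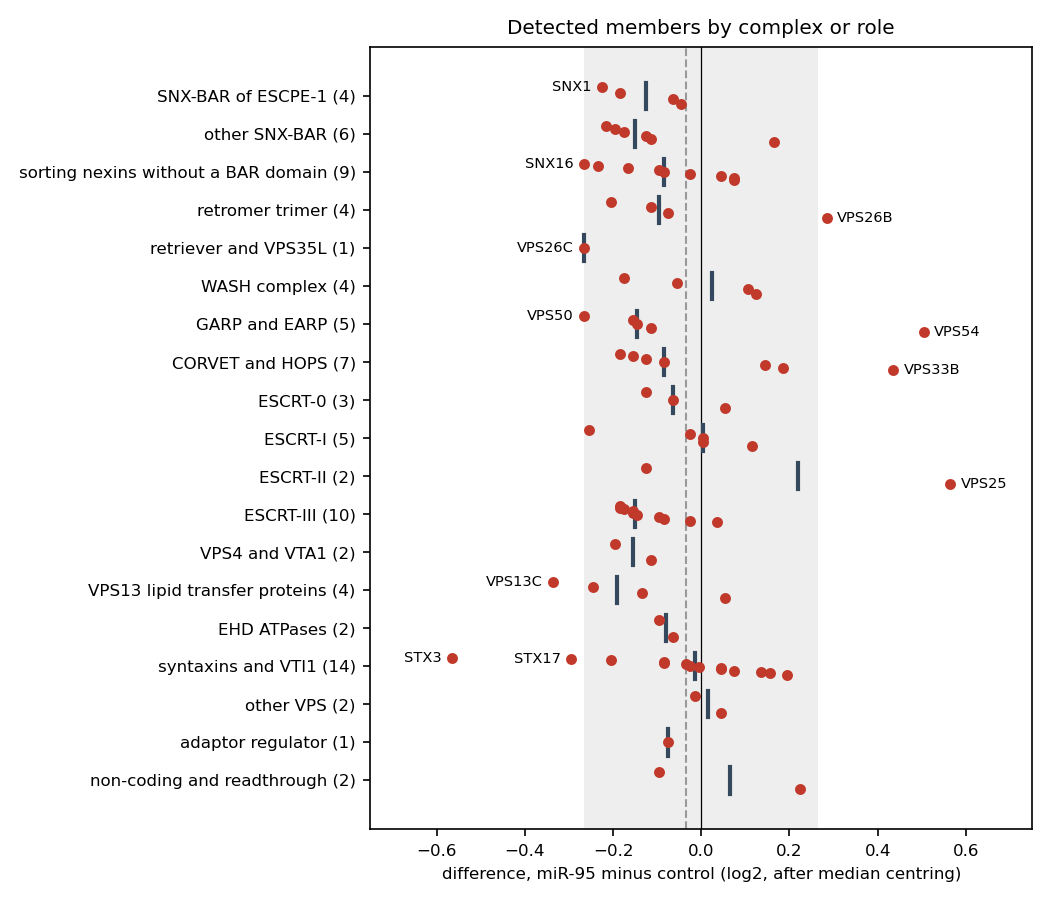
Difference, miR-95 minus control, in log2 after median centring (horizontal axis), for each of the 87 detected members (points), by complex or role with the number detected in brackets. Dark bars mark the median of each role, the dashed line the median of all detected genes (-0.035), and the shaded band differences under 1.2-fold. Labels mark SNX1 and the 10 members past 1.2-fold, of which STX3 (-0.565) is lowest and VPS25 (0.565) highest.

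The syntaxins and VTI1 proteins held the lowest member and otherwise lay on both sides, 8 negative and 6 positive of 14 detected (median -0.015, or 0.02 with the values not centred). STX3, a SNARE of fusion at the apical plasma membrane, read 9.69 on the miR-95 array, against 10.22 on the control array (-0.565, 1.48-fold lower). It ranked 66th from the lowest of all 7081 detected genes. STX17, which drives fusion of autophagosomes with lysosomes, read 8.47 on the miR-95 array, against 8.73 on the control array (-0.295, 1.23-fold lower). STX12 of recycling endosomes, at -0.205, differed from its relative STX7 of late endosomes, at 0.045. The higher side held STX1A, best known from synaptic fusion, at 0.195, VTI1A at 0.155 and STX6 of the trans-Golgi network at 0.135. STX2, STX4, STX5, STX8, STX10, STX18 and VTI1B lay between -0.085 and 0.075. STX19 gave the lowest difference of all 104 genes, -0.655, but at dim values of 5.10 on the miR-95 array, against 5.72 on the control array, below the detection limit on both.

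The remaining members were the VPS13 lipid transfer proteins, the EHD ATPases and a few single genes. VPS13C, a bridge for lipids between the endoplasmic reticulum and late endosomes, read 8.71 on the miR-95 array, against 9.01 on the control array (-0.335, 1.26-fold lower). VPS13A was at -0.245, VPS13B at -0.135 and VPS13D at 0.055. These are very long genes, with a median span of 263.0 kb. The EHD ATPases, which remodel recycling tubules, were at -0.095 for EHD3 and -0.065 for EHD4, with EHD1 and EHD2 below the limit.

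VPS45, an SM protein of the Golgi and endosomes, was at -0.015, and VPS72, which despite its name is a subunit of chromatin remodelling complexes, at 0.045. AP1AR, a regulator of the clathrin adaptor AP-1, was at -0.075 and was the only member with an AP symbol. None of the subunits of AP-1 to AP-5 was named by a probe set used here, so SNX1 could not be set against them. In RefSeq 134 protein-coding symbols fit the symbol rule, of which 99 had a named probe set, and 24 of the 35 others were AP subunits. The readthrough transcript STX16-NPEPL1 was at -0.095 and the antisense transcript VPS9D1-AS1, which overlaps VPS9D1, at 0.225.

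Gaps and signs were also compared within pairs of paralogs. No unrelated pairs were set beside them, so the values are not read as particular to paralogs. The differences of the 87 detected members spread by 0.133, and those of all detected genes by 0.148, both scaled like a standard deviation. Over 16 pairs of close relatives with both members detected, listed after the values were seen, the median gap was 0.1 on the log2 scale. CHMP4B was paired both with CHMP4A and with CHMP4C. A gap of at most 0.126 was found in 10 pairs. That limit is the spread of 1 probe set, and a gap between 2 probe sets spreads wider. The signs were opposite in 5 pairs, among them VPS26A with VPS26B (gap 0.49), VPS33A with VPS33B (0.56), and STAM with STAM2 (0.18). In STX6 with STX10, also counted, the sign of STX10 (-0.005) rested on the centring. Its deposited values were 11.44 on the miR-95 array, against 11.41 on the control array.

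Of 121 other symbols of endosomal sorting listed by function, some of them older names of the same gene, 62 were measured and 53 detected. These gave 37 negative and 16 positive differences (69.8% negative, where 59.4% of all detected genes were) and a median of -0.065, against -0.035. Some of these negative signs rested on the centring, among them those of EPN1 (-0.015) and PICALM (-0.005). With the values not centred, 48.0% of all detected genes were negative. At 1.2-fold 5 were lower and 2 higher, or 9.43% and 3.77%, near the 8.45% and 5.48% of all detected genes. Among the partners of the syntaxins, 14 of 17 detected were negative (82.4%, where 59.4% of all detected genes were). At 1.2-fold 3 of them were lower (17.65%, where 8.45% of all detected genes were), in a list of few genes. The negative signs of GOSR2, STXBP5 and BET1L rested on the centring. As deposited, GOSR2 read 10.92 on the miR-95 array, against 10.89 on the control array. STXBP5 read 9.69 on the miR-95 array, against 9.67 on the control array, and BET1L 9.31 on both. NSF, the ATPase that takes SNARE complexes apart, read 11.49 on the miR-95 array, against 11.87 on the control array (-0.415, 1.33-fold lower). The vesicle SNAREs VAMP7 and VAMP3 were at -0.415 and -0.285. VAMP3, deposited at 11.36 on the miR-95 array, against 11.61 on the control array, fell short of 1.2-fold with the values not centred.

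Among 9 enzymes and regulators of endosomal phosphoinositides, MTMR6, a phosphatase of PI3P, was highest at 9.78 on the miR-95 array, against 9.00 on the control array (0.745, 1.68-fold higher). Of the 9, 7 were negative (77.8%, where 59.4% of all detected genes were). The negative sign of MTMR3 (-0.005) rested on the centring, with 8.53 on the miR-95 array, against 8.50 on the control array. Of the clathrin-associated genes, EPN2, an endocytic adaptor, was 1.36-fold higher. STAMBPL1, a deubiquitinase related to the ESCRT-bound STAMBP, was 1.25-fold lower, and COMMD1, of the complex that works with retriever and WASH, 1.23-fold lower. Of 5 detected cargo receptors, 2 were negative and 3 positive (40.0% negative, where 59.4% of all detected genes were). IGF2R, the large mannose 6-phosphate receptor returned to the Golgi by SNX-BAR coats, was at -0.095 and WLS at -0.125. M6PR was at 0.015, EGFR, which ESCRTs send to lysosomes, at 0.135, and LRP1 at 0.165. None of the 5 reached 1.2-fold, where 8.45% of all detected genes were lower and 5.48% higher.

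**Figure D4:**
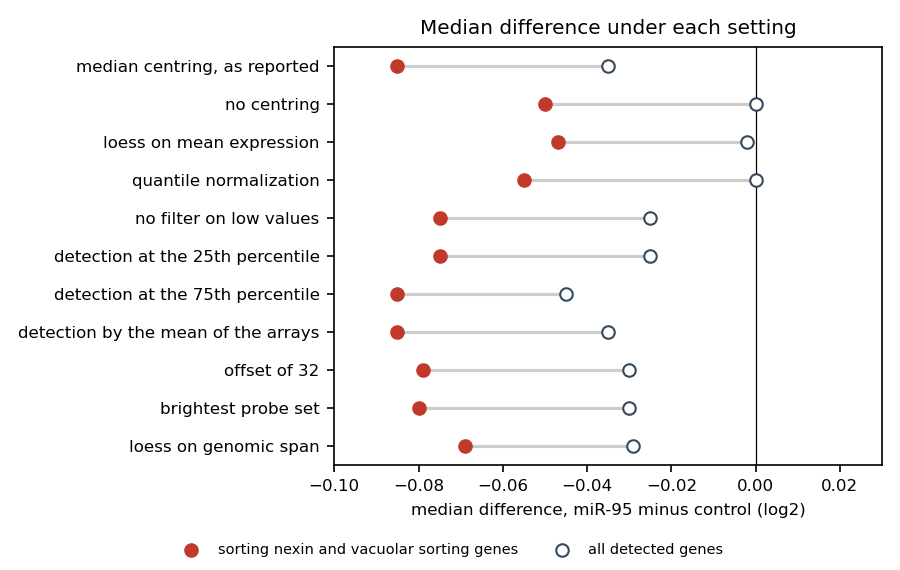
Median difference, miR-95 minus control, in log2 (horizontal axis), of the detected sorting nexin and vacuolar sorting genes (filled red) and of all detected genes (open) under the reported setting and the 10 alternatives. The median of the sorting genes ran from -0.085 to -0.047 and lay 0.040 to 0.055 below that of all detected genes in each.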

How the data were processed

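RNA from 2 PC3 cultures was measured on Affymetrix arrays, 1 each. The authors deposited log2 expression values per probe set with 2 decimals, a scale inferred from their range, and Affymetrix Expression Console 1.2 is named per the submitters' processing notes. The sources used here do not give the summarisation, the between-array scaling or the build. Probe sets with 1 gene symbol (14088 of 23641) were kept, and probe sets of a gene were averaged. Each array was centred on its median over genes, and a gene was detected at or above that median on either array. Fold limits were 1.5 and 1.2. Genes named are SNX1, the BAR nexins, the retromer trimer, members past 1.2-fold, and the most different members of each role group, with further members for completeness. The members and lists were chosen with earlier results of these data known. After values were seen, non-BAR nexins were merged into 1 class and paralog pairs were listed. The alternatives were no centring, loess (span 0.4), quantile normalization, detection at the 25th or 75th percentile, by the mean or with no filter, an offset of 32, the brightest probe set, and adjustment for genomic span. The centring and the 1.5-fold calls were tested on simulated data with planted changes larger than 1.5-fold. The simulation did not cover the 1.2-fold counts, the detection rule or the adjustment for span. Python 3.11.15, pandas 2.3.3 and statsmodels 0.14.6 were used.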

Additional observations from a re-analysis of the deposited data

How the results depend on the processing

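No paired analysis was possible because each group holds 1 array, and no replicate could be left out. Over the 10 alternatives SNX1 stayed between -0.225 and -0.18 and ranked 2nd to 4th from the lowest of the detected sorting nexins. The share of negative members ran from 62.1% to 78.4%. It was 62.1% without centring, where 48.0% of all detected genes were negative. Members lower by 1.2-fold numbered 6 of 87 as reported, where 8.45% of all detected genes were. They numbered 2 of 87 without centring (6.07% of all detected genes) and 2 after quantile normalization (6.27%). They numbered 3 of 87 after loess (6.38%), with the offset (7.0%), with the brightest probe set (7.77%) and after adjustment for span (7.5%). With detection at the 75th percentile 1 of 51 members was lower and 1 higher, where 8.45% and 4.94% of 3621 genes were. In each of these settings the share of lower members was below that of all detected genes. SNX16, VPS26C and VPS50, at -0.265, lie just past the limit of 0.263. Members higher by 1.5-fold numbered 1 of 87, VPS25, without centring, after loess and after quantile normalization, where 37, 34 and 35 of 7081 genes were. With no filter 1 of 104 members, STX19, was lower by 1.5-fold, where 128 of 13864 genes were. The split of all detected genes at 1.2-fold turned with the scaling, from 598 lower and 388 higher as reported to 430 lower and 502 higher without centring. The median of the syntaxins and VTI1 was 0.02 without centring and after loess. That of ESCRT-I, 0.005 as reported, was -0.01 with no filter and at the 25th or 75th percentile, and -0.005 after adjustment for span. That of the non-BAR nexins was -0.02 with no filter or the 25th percentile. ESCRT-III kept a median between -0.169 and -0.112. In an alternative chosen after seeing the data, members that have copies, antisense, divergent or readthrough partners were left out. Of the 82 members then detected, 58 were negative (70.7%, where 59.4% of all detected genes were). By 1.2-fold 5 were lower and 4 higher, or 6.1% and 4.88%, where 8.45% and 5.48% of all detected genes were. The cause of these shifts was not tested.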

Other observations

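Several members are neighbours in RefSeq. SNX1 lies beside SNX22, and SNX2 beside SNX24. These neighbours were both below the detection limit, SNX22 at 6.52 on the miR-95 array, against 6.38 on the control array, and SNX24 at 6.40 on the miR-95 array, against 6.38 on the control array. STX17 at -0.295 and its divergent transcript STX17-DT at -0.455 were both lower on the miR-95 array, although STX17-DT was dim, at 4.40 on the miR-95 array, against 4.82 on the control array. VPS9D1-AS1 at 0.225 overlaps VPS9D1, which was below the limit at 0.155, and whether the probe sets separate the strands was not tested.

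The 17 members below the detection limit were balanced in direction, with 8 negative and 9 positive differences, a median of 0.015 and a range from -0.655 to 0.335.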
